A study of Mus musculus with 2 samples.

Results

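Internal microexons of 3 to 30 nt were examined in long-read RNA-seq of mouse adrenal gland. A microexon is an exon so short that it adds only a few amino acids to a protein. An exon was taken when an annotated transcript of a protein-coding gene holds it as an internal exon and Known, NIC or NNC transcript models with at least 5 reads over both libraries hold it with exactly those ends. A Known model is an annotated transcript, a NIC model a new combination of annotated splice sites, and an NNC model a transcript with a splice site that the annotation lacks. By this rule 559 microexons of 490 genes were members, of 2605 annotated internal exons of that length, or 21.5%. Over all lengths, 92904 internal exons met the same minimum of reads. Because read counts chose the members, their read counts are given as a description.

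The RNA came from adrenal glands of 14-day-old female B6CASTF1/J mice, the F1 hybrid of a C57BL/6 and a CAST parent, with no treatment, control or second genotype. The 2 libraries, biological replicates 1 and 2, form a single group. The tissue sample of replicate 1 is named for 3 females and that of replicate 2 for 1, whereas both library descriptions speak of 3, so the number of animals behind each library is not settled. Differences are replicate 1 minus replicate 2, and every test compares the reads of these libraries, not animals.

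Replicate 1 held 1143111 reads and replicate 2 held 991731, of which 1065570 and 946553 fell in annotated genes. Replicate 2 stood apart from replicate 1. The 5 hepatocyte markers summed to 648 CPM (counts scaled to a common total of gene reads) in replicate 1 and 70980 CPM in replicate 2, and the 5 skeletal muscle markers to 56.3 and 1751 CPM, with all 5 of each list lower in replicate 1 and Myh1 and Tnnt3 at 0 reads there. Markers that define the adrenal gland were present in both libraries: the 5 of the steroid-making cortex summed to 53614 and 23932 CPM, and the 7 of medullary chromaffin cells to 13047 and 5068 CPM. In bulk tissue, fewer cells of a type and less RNA per cell cannot be told apart. From replicate 1 alone 442 microexons met the rule, and from replicate 2 alone 456.

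Microexons are best known from neurons, where the splicing factor Srrm4 promotes their inclusion through motifs in the upstream intron and Ptbp1 represses many of them. Such exons often keep the reading frame and change a protein surface that binds partners. Others are constitutive, included in nearly every transcript, and stay at 1 length across a gene family. The chromaffin cells of the adrenal medulla arise, like peripheral neurons, from the neural crest.

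The following alternative coding microexons were chosen for display because reads divided between included and skipped forms in both libraries. Capitals mark the microexon, the lower-case letters are the 12 coding bases on either side in the spliced transcript, and all sequences are the transcript strand of GENCODE M21 transcripts on mm10.
Acly, chr11:100503160-100503189, minus strand: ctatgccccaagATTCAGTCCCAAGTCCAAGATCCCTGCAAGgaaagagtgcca
Anxa6, chr11:54987051-54987068, minus strand: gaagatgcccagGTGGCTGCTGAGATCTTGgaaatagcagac
Dnm2, chr9:21490658-21490669, plus strand: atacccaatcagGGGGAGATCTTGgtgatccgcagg
Cd47, chr16:49908054-49908078, plus strand: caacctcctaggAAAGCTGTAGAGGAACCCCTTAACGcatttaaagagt
Abi1, chr2:22963214-22963228, minus strand: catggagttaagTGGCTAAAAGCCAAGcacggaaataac
The Dnm2 exon is the shortest member, and apart from those of Dnm2 and Anxa6 the exons shown were held by the minority of informative reads.

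Members were mostly long for microexons. Their median length was 27 nt, 447 had 24 to 30 nt and 8 had under 18 nt. The lengths most often seen were 30 nt with 108 members and 27 nt with 106. At the edges of the rule, 67 exons of 31 nt had at least 5 reads and lay just outside, 27 members had exactly 5 included reads, and 31 annotated microexons with 4 reads just missed it. Of the members, 298 (53.3%) had a length divisible by 3. By length the share was 33.3% of 27 members of 18 to 20 nt, 28.6% of 77 of 21 to 23 nt, 36.4% of 132 of 24 to 26 nt and 67.9% of 315 of 27 to 30 nt, a range that holds both 27 and 30. Among internal exons of 31 to 50 nt the share was 37.7%, and among those of 51 to 100 nt 39.3%. Annotated microexons favour such lengths before any read is counted, so the 53.3% is not particular to members. At 27, 28, 29 and 30 nt, 350, 133, 133 and 297 exons are annotated. At 24, 25 and 26 nt, 217, 120 and 98 are annotated, and 48, 52 and 32 were members. At 21, 22 and 23 nt, 200, 61 and 123 are annotated, and 22, 26 and 29 were members. In the leading annotated transcript, 520 members were coding, 14 were part coding, 10 lay in the 5′ untranslated region and 1 in the 3′ untranslated region, and 14 were in transcripts with no coding sequence.

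**Figure D1:**
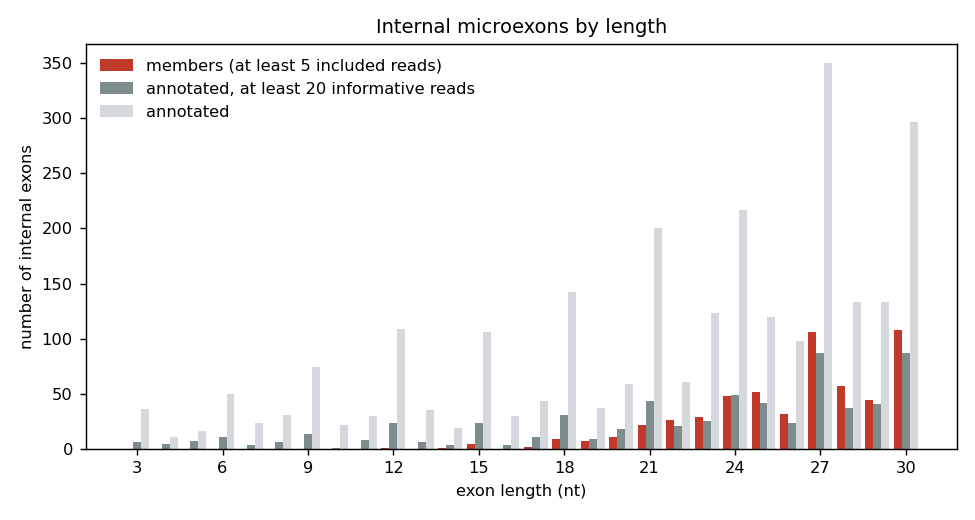
Number of internal exons (y axis) at each length in nt (x axis): members in red, annotated exons with at least 20 informative reads in dark grey, and all annotated exons in light grey. Members crowd at 24 to 30 nt, with 106 at 27 nt and 108 at 30 nt, although annotated exons reach down to 3 nt.

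Most members were included in nearly every read that could show them. Inclusion is the share of informative reads, which are reads that hold the exon plus reads of the same gene with an intron spanning it. Summed over members, there were 27680 included reads in replicate 1, 28334 in replicate 2 and 8029 skipping reads over both. A read that holds or skips several members counts for each of them in these sums. No skipping read was seen for 283 members, and median inclusion over both libraries was 100%. The rule asks for included reads, so it leaves out many exons that are mostly skipped. Of all annotated exons of 3 to 30 nt, members or not, 641 had at least 20 informative reads. Their median inclusion was 71.0%, and 224 or 34.9% had 0 included reads. For exons of 31 to 50 nt the same measures were 100% and 5.94%. Among the 368 members with at least 20 informative reads, 307 were above 90%, 46 between 10% and 90% and 15 below 10%. Of these 368 members 16.6% lay under 90%, against 6.86% of exons of 31 to 50 nt and 3.70% of 51 to 100 nt under the same minimum. With Known models only, the shares were 9.06% of 298 members and 4.03% of 2009 exons of 31 to 50 nt. Exons are not replicates of a condition, so these shares carry no test.

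The 10 members with most included reads drew 918 to 2486 each over both libraries. Rpl41, a protein of the large ribosomal subunit, carries 2 of them in a transcript of 4 exons. Its 23 nt exon had 1238 included and 3 skipping reads in replicate 1 and 721 and 2 in replicate 2, and its 25 nt exon had 1153 and 666 included reads with no skipping read. The 25 nt exon of Gpx4, the peroxidase that reduces lipid hydroperoxides, had 969 and 635 included reads and none skipping. All 3 exons were thus held by nearly every informative read in both libraries. Myl6, a light chain of non-muscle myosin, had 553 and 365 included reads on its 28 nt exon, with 2 and 0 skipping. Cyb5a, the electron carrier cytochrome b5, had 389 and 611 on a 30 nt exon, with 1 skipping read in each library. Ifi27, an interferon-induced gene, had 639 included and 11 skipping reads in replicate 1 and 568 and 3 in replicate 2 on its 30 nt exon.

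The exons of F2, which encodes prothrombin, and Hpd, an enzyme of tyrosine breakdown, owed their rank to replicate 2. F2 had 5 included reads in replicate 1 and 1003 in replicate 2 on a 25 nt exon, and Hpd 3 and 967 on a 27 nt exon. Both genes are known for expression in liver, and the hepatocyte marker sums differ between the libraries in the same direction, whose part in these counts was not tested. The 25 nt exon of Bsg, the membrane glycoprotein basigin, had 1087 included and 76 skipping reads in replicate 1, 93.5% (95% exact Clopper-Pearson interval 91.9 to 94.8), and 1399 and 97 in replicate 2, 93.5% (92.1 to 94.7). Intervals here and below cover counting error only. No annotated intron skips the Bsg exon, and 152 of its 173 skipping reads used an unannotated intron that leaves 28 extra bases on the flanking exons.

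Acly, which encodes ATP citrate lyase, the source of cytosolic acetyl-CoA for lipid and sterol synthesis, gave the most deeply measured alternative microexon. Its 30 nt exon had 631 included and 1355 skipping reads in replicate 1, 31.8% (29.7 to 33.9), and 368 and 778 in replicate 2, 32.1% (29.4 to 34.9). The libraries differed by -0.339 percentage points (Fisher's exact test, two-sided, p = 0.842, adjusted p = 1), within counting error, and the mean was 31.9 ± 0.24% (SD, n = 2). Its length is divisible by 3, and 2127 of the 2133 skipping reads used an annotated intron.

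Other exons in membrane traffic and signalling genes were alternative in both libraries. The 12 nt exon of Dnm2, the GTPase dynamin 2 that severs endocytic vesicles, was held by 64 of 126 informative reads in replicate 1, 50.8%, and 55 of 99 in replicate 2, 55.6%, a mean of 53.2 ± 3.37% (SD, n = 2). Anxa6, a calcium-dependent membrane binding annexin, had 123 included and 44 skipping reads in replicate 1, 73.7%, and 122 and 56 in replicate 2, 68.5%, on its 18 nt exon, a mean of 71.1 ± 3.62% (SD, n = 2). The intervals of the libraries overlapped for both exons. Mark3, a kinase of microtubule-associated proteins, had inclusion of 75.0% and 66.7% on a 27 nt exon, and Mia2, which exports cargo from the endoplasmic reticulum, 87.9% and 86.1% on a 27 nt exon. Cd47, the surface receptor that restrains phagocytosis, had 21.4% and 18.1% on the 25 nt exon. Trappc9, a vesicle tethering subunit, had 24.4% and 20.9% on 27 nt, and Ptpra, a receptor tyrosine phosphatase, 14.0% and 12.5% on 27 nt. In the 5′ untranslated region of Hnrnpc, an RNA-binding protein of nascent transcripts, a 26 nt exon was included in 73.7% and 68.3% of reads. Apart from Dnm2, the values of these 7 exons were higher in replicate 1, but neither they nor Dnm2 passed the library test.

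Alternative exons in collagen and complement genes depended on replicate 2 for their depth. Of the Col18a1 exons, the 27 nt exon at chr10:77076148-77076174 had 17 included and 4 skipping reads in replicate 1 and 140 and 22 in replicate 2. No annotated intron skips it, and 25 of the 26 skipping reads carried 17 extra flanking bases. Whether these reads lack the Col18a1 exon or carry its bases aligned to a flank was not tested. Cfi, the protease complement factor I, had no informative read in replicate 1. In replicate 2 its 27 nt exon had 154 included and 27 skipping reads, 85.1%, and its 21 nt exon 136 and 65, 67.7%. In all, 18 members had no informative read in replicate 1 and 3 had none in replicate 2.

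**Figure D2:**
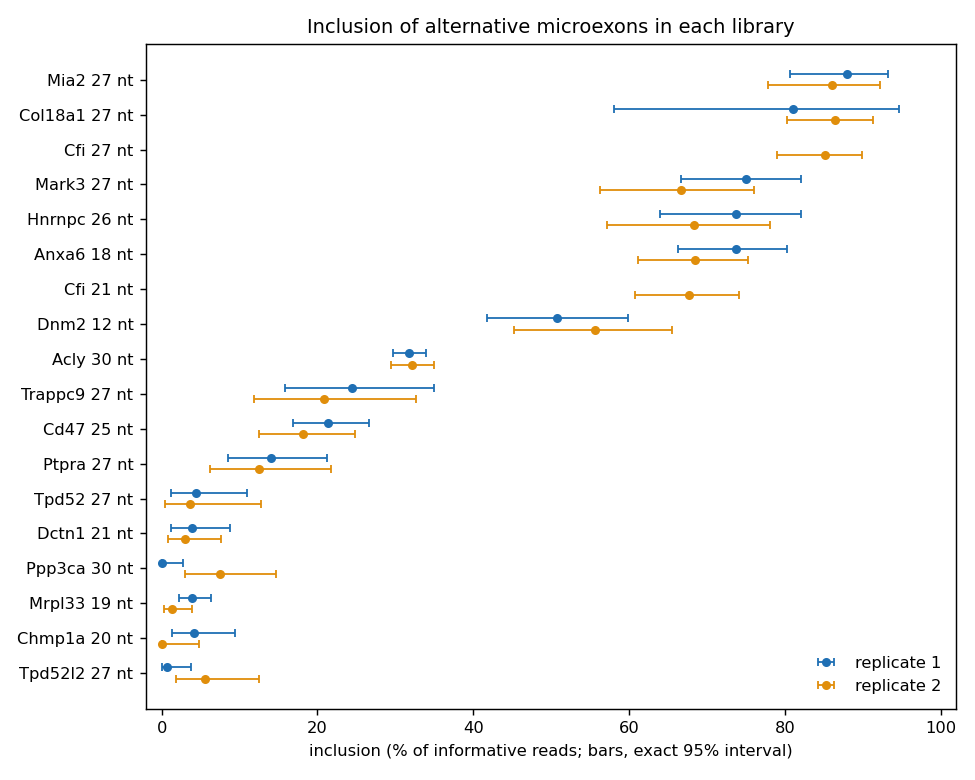
Inclusion in percent of informative reads (x axis) of the 18 named members that are alternative or of lowest inclusion (y axis), with replicate 1 in blue above replicate 2 in orange and bars for exact 95% intervals of counting error. Acly sits at 31.8% and 32.1%, Dnm2 at 50.8% and 55.6%, and Cfi has values in replicate 2 alone.

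The members of lowest inclusion were rare forms. Since a member needs at least 5 included reads, such low values could be met only in well-read genes. Tpd52l2 and Tpd52, paralogs of the tumour protein D52 family, each carry a rarely used 27 nt exon. The Tpd52l2 exon had 1 included and 147 skipping reads in replicate 1 and 5 and 85 in replicate 2, 2.52% over both, and the Tpd52 exon 4 and 86, and 2 and 52, 4.17%. Ppp3ca, the catalytic subunit of the phosphatase calcineurin, had 0 of 133 informative reads on its 30 nt exon in replicate 1 and 7 of 94 in replicate 2. A count of 0 of 133 allows an inclusion of up to 2.26%. Dctn1, the large subunit of the dynein activator dynactin, had 5 of 130 and 4 of 131 on a 21 nt exon. Inclusion of all 4 exons stayed under 8% in both libraries.

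The remaining low exons differed from these in their skipping introns. Mrpl33, a mitochondrial ribosomal protein, had 15 included and 372 skipping reads on a 19 nt exon in replicate 1 and 3 and 218 in replicate 2, and 561 of the 590 skipping reads used an unannotated intron that leaves 8 extra bases. Chmp1a, a subunit of the membrane remodelling ESCRT-III complex, had 5 and 115, and 0 and 76, on a 20 nt exon that no annotated intron skips, and 185 of its 191 skipping reads used an intron that leaves 25 extra bases. Whether these reads lack the microexon or carry its bases aligned to a flank was not tested.

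Most members under 90% had an annotated skipping intron. Of the 138 members that an annotated intron of the gene skips, 65.2% had a length divisible by 3, against 49.4% of the 421 others. With at least 20 informative reads, 14 of 103 of the first were under 10%, 36 between 10% and 90% and 53 above 90%, with a median of 90.8%. Of the 265 others, 1 was under 10%, 10 were between and 254 above, with a median of 99.6%. By inclusion, 12 of 15 members under 10% and 31 of 46 between 10% and 90% had a length divisible by 3, against 153 of 307 above 90%. These counts include members that are not coding. Of all 8029 skipping reads, 6162 used an annotated intron. The other 1867 used unannotated introns. Of these, 208 joined the same flanking splice sites as the included form, 819 had an end 1 to 60 nt inside a flanking intron and 840 were of neither kind.

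The shortest exons were rarely held with exactly their annotated ends. Among annotated internal exons with at least 20 informative reads, 59 of 59 of 3 to 11 nt had 0 included reads, 30 of 32 of 12 to 14 nt, 32 of 37 of 15 to 17 nt, 29 of 58 of 18 to 20 nt and 27 of 252 of 27 to 30 nt. Of exons of 31 to 50 nt, 157 of 2641 or 5.94% were at 0. Counted over all exons of 3 to 17 nt, 121 of 128 or 94.5% were at 0. When internal exons with other ends counted as included, 87 of 188 or 46.3% were at 0, against 139 of 2953 or 4.71% of exons of 31 to 50 nt. More exons then reach 20 informative reads, so the 128 and the 188 are not the same set. Exons at 0 fell from 121 to 87, less than the shares alone convey. Among exons with no annotated skipping intron, 13 of 15 of 3 to 17 nt were at 0, 3 of 18 of 18 to 20 nt, 6 of 41 of 21 to 23 nt, 0 of 63 of 24 to 26 nt, 0 of 155 of 27 to 30 nt and 1 of 1918 of 31 to 50 nt. With other ends counted as included, the first of these became 6 of 52 and the last 1 of 2148, again over more exons. When skipping was counted on annotated introns alone, 1 of the 15 kept 20 informative reads and it was not at 0. No annotated intron of the gene skips these exons, so only included reads could keep them in that count. This setting therefore cannot show whether they are at 0.

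**Figure D3:**
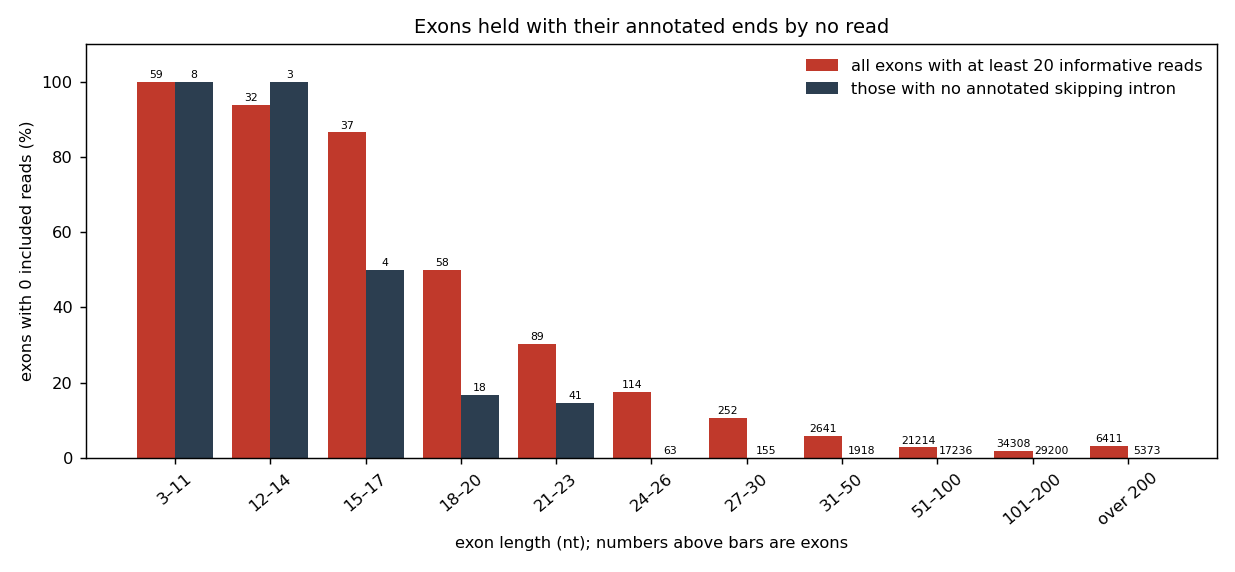
Share in percent of internal exons with at least 20 informative reads that have 0 included reads (y axis) by exon length in nt (x axis), for all such exons in red and for those with no annotated skipping intron in dark blue, with the number of exons above each bar. The share is 100% at 3 to 11 nt and 5.94% at 31 to 50 nt.

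The 22 exons of 3 to 30 nt at 0 included reads without an annotated skipping intron were then set beside the introns that span them. Of their 4204 skipping reads, 3370 used an intron that leaves 1 to 60 extra bases on the flanking exons and 100 joined the annotated flanking splice sites exactly. In 19 of the 22 the leading intron ended inside the flanking introns or at their ends, and in 8 of these the extra bases matched the exon length to within 2 bases. Neither the exons nor the reads are independent, since a read that spans several of these exons counts for each. Nudt5 stands among the 8 with overlapping annotated exons of 10 and 9 nt, each with 80 skipping reads. The Col6a1 exons of 21 nt had 236 and 235 skipping reads. Hnrnpk, an RNA-binding protein, had 0 of 1237 informative reads on a 16 nt exon, which allows up to 0.243%, and 1195 of them carried 16 extra flanking bases. Pitpnb, a phosphatidylinositol transfer protein, had 0 of 228 on an 8 nt exon, a limit of 1.32%, with 8 extra bases in 227 reads. Rwdd4a had 0 of 69 on a 3 nt exon, a limit of 4.35%, with 3 extra bases in 68. These exons were named after their values were seen. Whether the extra bases are those of the microexon was not tested, since sequence of the introns was not used here.

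**Figure D4:**
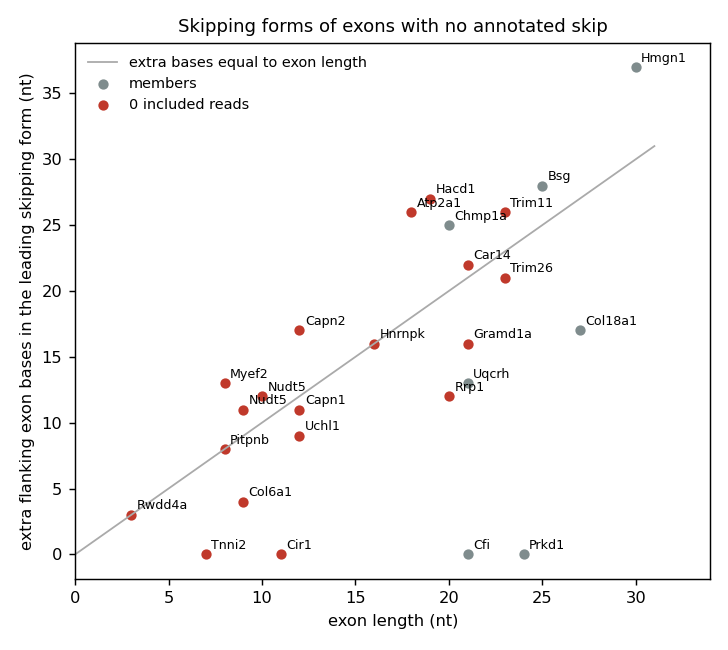
Extra flanking exon bases left by the leading skipping intron in nt (y axis) against exon length in nt (x axis), for exons with no annotated skipping intron and at least 20 reads on that intron, with members in grey and exons at 0 included reads in red. Hnrnpk, Pitpnb and Rwdd4a lie on the line of equal length at 16, 8 and 3 nt, while Tnni2 and Cir1 lie at 0 extra bases.

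The shortest members, chosen by length, show which short exons were held at all. Besides Dnm2 they were exons of 14 and 15 nt. Col5a2, a chain of fibrillar collagen, had 3 and 6 included reads on a 14 nt exon and none skipping. Abi1, an adaptor of the Abl kinase and of actin assembly, had 11 of 26 and 10 of 22 on 15 nt. Sptan1, the spectrin of the membrane skeleton, had 2 of 4 and 8 of 15 on 15 nt, and Snap91, a clathrin assembly protein, 8 of 19 and 3 of 6 on 15 nt. Arhgef10l had 4 of 13 and 1 of 12 on 15 nt. Dnm2, Abi1 and Arhgef10l had enough reads for the library test and did not pass (Fisher's exact test, adjusted p = 1 each), and the others were not tested.

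Microexons of genes known for neural microexons were mostly skipped. In 72 such genes 159 microexons are annotated and 47 had at least 10 informative reads. Of these 28 had 0 included reads, 38 were under 10%, 4 were between 10% and 90% and 5 above 90%, and 11 of the 47 were members. Over all 840 annotated microexons with that depth, 303 were at 0, 367 under 10%, 75 between 10% and 90% and 398 above 90%. Under 18 nt, 20 of 26 in the listed genes were at 0, against 162 of 170 in all. From 18 nt up, 8 of 21 in the listed genes were at 0, against 141 of 670 in all. Examples outside the members are the 15 nt exon of Ergic3 with 0 of 579 reads, a limit of 0.518%, and the 12 nt exon of Kdm1a, the histone demethylase whose microexon marks neurons, with 0 of 103, a limit of 2.91%. Both were named after their values were seen.

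The listed members ranged from rarely to always included. Beside Dnm2, Abi1, Sptan1 and Snap91, the ubiquitin ligase Herc4 had 3 of 56 and 5 of 45 on a 24 nt exon. The guanine exchange factor Vav2 had 14 of 16 and 21 of 21 on 22 nt, and the Slit receptor Robo1 5 of 6 and 6 of 6 on 27 nt. An 18 nt exon of Sptan1 had 4 and 15 included reads, a 28 nt exon of Rufy3, an effector of small GTPases, 26 and 31, and a 28 nt exon of Snap91 17 and 7, all with none skipping. Of 18 genes known for muscle microexons, 3 exons had at least 10 informative reads and none was a member, while 6 members of those genes had fewer reads. Mef2a, Mef2c and Mef2d, transcription factors of muscle and neurons, had inclusion of 8.51%, 0% and 7.14%. Mef2a had 4 included and 43 skipping reads and Mef2d 3 and 39. The 0 of 24 reads of Mef2c allows up to 12.5%, so the 3 cannot be told apart. Neuron markers summed to 106 and 59.2 CPM and Schwann cell markers to 48.8 and 53.9 CPM.

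The factors known to act on microexons were present unevenly. Srrm4 had 0 and 2 reads and its paralog Srrm3 3 and 0, both named after their values were seen. Esrp1, Elavl2 and Elavl3 had no read in either library, which allows up to 2.82 CPM in replicate 1 and 3.17 CPM in replicate 2. The most abundant were Elavl1, which binds AU-rich RNA, with 160 and 127 CPM, Khdrbs3 with 109 and 114 CPM and the repressor Ptbp1 with 110 and 65.5 CPM. Srsf11, which works with Srrm4 on microexons, had 93.8 and 69.7 CPM, Mbnl2 67.6 and 89.8 CPM, Qk 74.1 and 72.9 CPM and Khdrbs1 90.1 and 52.8 CPM. Mbnl1 had 78.8 and 51.8 CPM, Rnps1 57.2 and 51.8 CPM and Celf2 38.5 and 23.2 CPM.

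Of 35 factors, 17 had at least 20 reads and were tested with an exact conditional binomial test, adjusted over all genes tested. Ptbp1 (log2 ratio of replicate 1 over replicate 2 0.74, counting SE 0.23, adjusted p = 0.00551) and Khdrbs1 (0.76, SE 0.25, adjusted p = 0.0109) were higher in replicate 1, none was lower and 15 did not pass. With no minimum on reads 32 were tested and Esrp2, named after its values were seen, also passed, as lower in replicate 1, with 1 and 14 reads (log2 ratio -3.44, counting SE 1.24). Among all genes 2436 of 9211 or 26.4% passed, so the 2 of 17 are no more than the background. The median log2 ratio was 0.42 over the 17 and 0.28 over all genes. Scaling by edgeR's TMM factors moved the median over all genes to 0.03, after which neither Ptbp1 nor Khdrbs1 passed and Mbnl2 passed as lower in replicate 1 (-0.66).

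Inclusion repeated closely between the libraries. Of 328 members with at least 10 informative reads in each, 268 differed by under 5 percentage points and 6 by over 20, and the median absolute difference was 0.971 points. For the 42 of these with pooled inclusion of 10% to 90% the median was 5.46 points, and 30 differed by under 10. Exons of every length with at least 10 informative reads in each library and at least 5 included and 5 skipping reads were tested with Fisher's exact test. Of 89 members tested 1 passed at an adjusted p under 0.05, or 1.12%, and of all 2387 exons tested 25 passed, or 1.05%. The share among members is near that background. In sign, 43 members were higher in replicate 1 and 46 lower, and 6 had an unadjusted p under 0.05.

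**Figure D5:**
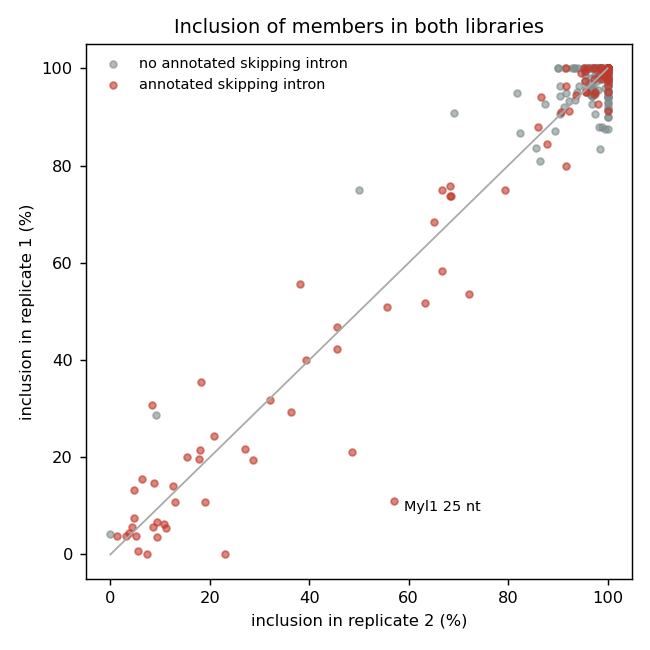
Inclusion in percent in replicate 1 (y axis) against replicate 2 (x axis) for the 328 members with at least 10 informative reads in each library, in red where an annotated intron skips the exon and in grey otherwise. Most points lie at the upper right corner, and the labelled 25 nt exon of Myl1 lies farthest below the diagonal at 11.1% and 57.1%.

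The member that passed was a 25 nt exon of Myl1, the essential light chain of fast skeletal muscle myosin. It had 2 included and 16 skipping reads in replicate 1, 11.1% (1.38 to 34.7), and 72 and 54 in replicate 2, 57.1% (48.0 to 65.9). The difference was -46.0 points (Fisher's exact test, p = 0.000246, adjusted p = 0.0278). When only models with at least 2 reads were counted, the adjusted p was 0.0689, and over the alternatives that could test it the range was 0.0278 to 0.0689. The muscle markers, at 56.3 and 1751 CPM, move with this exon, and their part in the result was not tested.

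Myl1 reads chose between 2 microexons. The 25 nt exon lies upstream of a 28 nt member, and of 144 reads informative for both, 73 held only the 25 nt exon, 57 only the 28 nt exon, 13 neither and 1 both. By library the counts were 2, 10, 6 and 0 in replicate 1 and 71, 47, 7 and 1 in replicate 2. The gene is known for 2 light chain forms that start at different promoters, each followed by its own short exon. The pair was chosen after its values were seen, and is shown here as the exons alone.
Myl1 25 nt, chr1:66934518-66934542, minus strand: TCCTTCAGTGCTGACCAGATTGCCG
Myl1 28 nt, chr1:66934246-66934273, minus strand: ATCGAGTTCTCTAAGGAGCAACAGGAGG

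Other pairs of members of 1 gene differed in whether the same reads held both. Of 55 pairs with at least 20 reads informative for both, 42 had both or neither on over 90% of those reads and 13, Myl1 among them, on no more than that. The 4 pairs with most informative reads were Rpl41, with both exons on 1817 of 1818 reads, Cyb5b, an outer mitochondrial cytochrome b5, with its 30 and 29 nt exons on 587 of 593, Hsd17b4, a peroxisomal enzyme of fatty acid breakdown, with 22 and 25 nt exons on 514 of 523, and Col4a1, a basement membrane collagen, with a pair of 27 nt exons on 420 of 425. By library, both exons were held by 1151 and 666 reads for Rpl41, 334 and 253 for Cyb5b, 230 and 284 for Hsd17b4, and 166 and 254 for Col4a1. Each exon of these 4 pairs was held by nearly every informative read. Reads with both follow from that, and cannot show whether the choice of 1 exon depends on the other. At the other end, and named after their values were seen, the 27 and 23 nt exons of Pecam1, an adhesion molecule of endothelial cells, were both on 25 of 61 reads, with 35 holding only the first, and the 28 and 15 nt exons of Snap91 were both on 9 of 23, with 14 holding only the first. Members of a pair share their reads and are not independent. Nor are pairs of 1 gene, since many of the 55 repeat the same exons and reads, as in Col18a1, Pecam1 and Rpl41. The Col18a1 exon at chr10:77076148-77076174 alone stands in several of the 13.

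Several families repeated 1 microexon length across genes. The families were chosen after the members were known, so their counts are a description. The vitamin K-dependent proteins, whose Gla domain binds calcium, have 8 annotated microexons in 8 genes, each 25 nt, and all 8 were members, with 165 included reads in replicate 1 and 1629 in replicate 2 and inclusion of 98.6% to 100%. Gas6 had 76 and 62 reads and Pros1 80 and 52, while F2, F7, F9, F10, Proc and Proz, secreted mainly by liver, had at most 5 reads each in replicate 1. The exons of 4 of these genes are shown to compare bases at 1 length.
Gas6, chr8:13485671-13485695, minus strand: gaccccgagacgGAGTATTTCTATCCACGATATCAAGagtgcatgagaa
Pros1, chr16:62888981-62889005, plus strand: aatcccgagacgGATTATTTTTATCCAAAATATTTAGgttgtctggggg
F2, chr2:91635171-91635195, minus strand: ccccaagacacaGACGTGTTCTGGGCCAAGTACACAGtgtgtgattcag
F9, chrX:60004408-60004432, plus strand: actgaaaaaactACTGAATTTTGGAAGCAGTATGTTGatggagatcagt
The Gas6 and Pros1 exons were identical at 19 of 25 bases, and those of F2 and F9 at 11 of 25.

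Myosins and collagens gave further fixed lengths. All 4 myosin heavy chain members had 28 nt, with 22 included reads in replicate 1 and 162 in replicate 2. The non-muscle chain Myh9 had 18 and 27 included reads and the muscle chain Myh1, itself among the muscle markers, 0 and 127. Of 29 collagen members in 7 genes, 24 had 27 nt, a length that can code for 3 Gly-X-Y repeats, and their inclusion was 66.7% to 100% over the family. Many of the 24 are Col13a1 exons with 11 or 12 informative reads each, most of them in a leading transcript with no coding sequence. The lowest value, 66.7%, is a Col13a1 exon on 8 of 12 reads. Of 12 TRIM ubiquitin ligase members 8 had 23 nt, and of 6 members in the chromatin-binding HMGN proteins 5 had 30 nt. The TRIM genes have 36 annotated exons of 23 nt, and the 8 members had inclusion of 68.8% to 100%. Trim11 and Trim26, named after their values were seen, had 0 of 85 and 0 of 38 informative reads on theirs, limits of 3.53% and 7.89%. No annotated intron skips these 2 exons, and the leading skipping introns left 26 and 21 extra flanking bases. The Myh9 and Myh1 exons are given because 19 of their 28 bases are identical.
Myh9, chr15:77797001-77797028, minus strand: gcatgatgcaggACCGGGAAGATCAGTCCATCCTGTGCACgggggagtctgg
Myh1, chr11:67203576-67203603, plus strand: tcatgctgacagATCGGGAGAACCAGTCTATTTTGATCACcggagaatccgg

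Paralogs of equal exon length did not always share a measured state. Atp2a2 and Atp2a1 encode calcium pumps of the sarcoplasmic and endoplasmic reticulum, the first widely expressed and the second in fast muscle. The 18 nt exon of Atp2a2 is a member, with 80 included and 3 skipping reads in replicate 1 and 113 and 12 in replicate 2, 92.8% over both. The 18 nt exon of Atp2a1 is not, with 0 of 11 and 0 of 591 reads, a limit of 0.498% over both, although no annotated intron skips it, and 599 of its skipping reads carried 26 extra flanking bases. These exons, chosen after their values were seen, are shown because they match at 13 of 18 bases.
Atp2a2, chr5:122500931-122500948, minus strand: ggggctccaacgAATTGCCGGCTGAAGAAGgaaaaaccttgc
Atp2a1, chr7:126462500-126462517, minus strand: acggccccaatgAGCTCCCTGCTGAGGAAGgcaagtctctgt
The 12 nt exons of Capn2 and Capn1, calcium-dependent proteases, were likewise at 0, with 0 of 100 and 0 of 79 reads for Capn2 and 0 of 46 and 0 of 31 for Capn1, limits of 1.68% and 3.90% over both libraries. All 179 skipping reads of Capn2 carried 17 extra flanking bases and all 77 of Capn1 carried 11. Whether these bases are those of the microexons was not tested.

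Other features of the members were set beside those of longer exons. The flanking introns in the leading form had medians of 1171 nt upstream and 886 nt downstream, against 1206 and 1011 nt for exons of 31 to 50 nt. Median GC content was 47.8% for members and 47.8% for exons of 31 to 50 nt. The last base was G in 80.0% of members and 78.2% of exons of 31 to 50 nt, and the last bases were AG in 51.5% and 53.3%. The first base was G in 44.0% and 48.5%. These shares were not tested.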

How the data were processed

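The deposited tables give whole-number read counts per transcript model and library, unscaled, with TALON identifiers and novelty classes and a model annotation on mm10 with GENCODE M21, per the file headers. Aligner, TALON version and read filters stand as not given in the sources used here. Exons and introns were rebuilt from the model annotations and the GENCODE M21 annotation, and reads of Known, NIC and NNC models counted. Incomplete splice match (ISM) models entered only an alternative. Intervals are exact (Clopper-Pearson, 95%), and the limit of a count of 0 is 3 counts. The tables hold no molecular identifiers, so both cover counting error only. Members and lists were chosen with earlier results of these data known. Exons named are those with most included reads (10), most informative reads at 10% to 90% (12), lowest inclusion (6), shortest (6), past the library test, in listed microexon genes, and the 4 leading pairs. Fisher's exact test used SciPy 1.17.1, with Benjamini-Hochberg adjustment over exons of every length. Genes with at least 20 reads were compared by an exact conditional binomial test, and edgeR and DESeq2 served for scaling factors alone. The tests were tested on simulated data.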

Additional observations from a re-analysis of the deposited data

How the results depend on the processing

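Of the 559 members, 350 remained with a limit of 27 nt, and the other alternatives gave 435 to 580, or 442 to 456 without replicate 2 or 1. Median inclusion was 99.7% with a read minimum of 10, 99.6% when a single model had to hold 5 reads and 99.0% up to 27 nt, and 100% otherwise. Members under 90% numbered 61, against 27 with Known models only and 35 to 39 without replicate 1 or 2. As a share, 16.6% became 9.06% with Known models, 17.6% with ISM models, 15.3% with models of at least 2 reads, 14.8% with skipping only between the flanking sites, 13.4% on annotated introns, 12% with a minimum of 10 reads, 14.0% with a single model of 5 reads and 22.3% up to 27 nt, and lay at 13.4% to 14.8% without a replicate. For exons of 31 to 50 nt, added after seeing the data, 6.86% became 4.03% with Known models, 6.21% with models of at least 2 reads, 6.17% with skipping only between the flanking sites, 6.26% on annotated introns, 5.75% with a minimum of 10 reads, 6.21% with a single model of 5 reads and 6.31% to 6.37% without a replicate. The 1 member past the library test became 0 with Known models, models of at least 2 reads, either stricter definition of skipping, or 20 informative reads per library, where Myl1 was either above the threshold or no longer tested. Exons of all lengths past that test numbered 25, against 16 with Known models and 16 with 20 informative reads. Regulators past the test numbered 2, against 1 under TMM and 1 under DESeq2 size factors, and 3 of 32 with no minimum on reads. Added after seeing the data, the share of exons of 3 to 17 nt at 0 included reads, 94.5%, was 46.3% when internal exons with other ends counted as included, 96.2% with Known models and 95.8% with models of at least 2 reads, and 96.0% to 96.8% without a replicate. For exons of 31 to 50 nt, 5.94% became 4.71%, 9.03% and 7.86% under the same settings, 5.83% on annotated introns and 6.35% to 6.48% without a replicate. The 46.3% is over 188 exons of 3 to 17 nt and the 94.5% over 128. The cause of these shifts was not tested, except that Known models cannot skip exons that no annotated intron skips. Of 383 values of the 39 named members under the alternatives, 323 moved by no more than the SD between the libraries, or stayed within the pooled interval where no SD above 0 was available. The library test needs both libraries and gives no value without a replicate. No paired analysis was possible because there is a single group.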

Other observations

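Some members outside the named set give values a reader may want to look at, all chosen after they were seen. The 2 exons of 30 nt in Hmgn1, a nucleosome-binding protein, were both missing from the same reads: of 285 reads informative for both, 258 held both, 24 neither and 3 only the downstream exon, with 154, 15 and 1 in replicate 1 and 104, 9 and 2 in replicate 2. All 27 reads that skip the upstream exon, which no annotated intron skips, carried 1 to 60 extra flanking bases, 37 in the leading intron of 24 reads, and whether these are bases of the missing exons was not tested. Gnas, the stimulatory G protein subunit, had a 24 nt exon in 15 of 350 reads, and Mars, the methionine tRNA synthetase, a 24 nt exon in 23 of 347. Suds3, a subunit of the Sin3 corepressor, was included in 30 of 36 reads in replicate 1 and 130 of 132 in replicate 2 on a 22 nt exon, with an unadjusted p of 0.00135 and an adjusted p of 0.0978 (Fisher's exact test), so it did not pass.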
